A study of Mus musculus with 18 samples.

Results

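The 10 genes described here, Atf3, Atf4, Ddit3, Chac1, Trib3, Asns, Hspa5, Dnajb9, Xbp1 and Herpud1, belong to the unfolded protein response and the integrated stress response. They were chosen by symbol, each matched 1 Ensembl identifier, and they are 10 of the 39017 gene identifiers in the deposited count tables. The tables hold RNA from translating ribosome affinity purification (TRAP), in which tagged ribosomes of a chosen cell type are captured together with the mRNA they carry. Each of the 18 libraries stands for 1 mouse, whose left and right entorhinal cortex were combined. In the silencing experiment 4 libraries came from mice given a vector with an shRNA against Ptbp1, an RNA-binding repressor of exon inclusion, and 5 from mice given a scrambled shRNA. In the overexpression experiment 5 came from mice given a vector with Ptbp1 and 4 from mice given a control vector. Every vector, those of the controls included, also carried mCherry, and 1 mouse per experiment was left out by the submitters for lack of mCherry reads. The tissue label reads hippocampus, whereas the title and design name layer II neurons of the entorhinal cortex. No source used here gives the driver of the ribosome tag or the strain, age and sex of the mice.

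When unfolded proteins collect in the endoplasmic reticulum, the sensors PERK, IRE1 and ATF6 start the unfolded protein response. PERK and related kinases phosphorylate the alpha subunit of an initiation factor, which lowers protein synthesis in general but favours translation of Atf4 mRNA. ATF4 is a transcription factor that induces genes of amino acid supply and, with prolonged stress, Ddit3 (CHOP), Trib3 and Chac1; this shared arm is called the integrated stress response. IRE1 splices Xbp1 mRNA, and the resulting factor, together with ATF6, induces chaperones and degradation factors of the endoplasmic reticulum such as Hspa5, Dnajb9 and Herpud1. Neither the cleavage of Xbp1 mRNA nor the amount of ATF4 protein can be read from gene counts.

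The promoters of 5 of these genes are shown, because the results turn on the gene (Atf3, Chac1 and Dnajb9) or because the window holds an element that names an arm of the response (Hspa5 and Herpud1). They are RefSeq promoter windows in build GRCm38.p6, from 250 bases before to 50 bases after 1 annotated start, given 5′ to 3′ on the strand of the gene. Capitals mark the defined bases of a match, on either strand, to CARE, the ATF4 response element (TGATGNAA), or to the consensus of ERSE or ERSE II, the last 2 being elements known from ATF6 targets. The Dnajb9 window holds no match.
Atf3, minus strand of chr1:191183284-191183583: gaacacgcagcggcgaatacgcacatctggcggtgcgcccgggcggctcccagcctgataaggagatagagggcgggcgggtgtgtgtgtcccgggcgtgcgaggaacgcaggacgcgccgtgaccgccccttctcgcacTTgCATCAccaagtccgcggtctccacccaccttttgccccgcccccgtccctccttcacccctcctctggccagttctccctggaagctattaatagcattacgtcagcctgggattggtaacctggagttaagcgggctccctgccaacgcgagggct
Chac1, plus strand of chr2:119350992-119351291: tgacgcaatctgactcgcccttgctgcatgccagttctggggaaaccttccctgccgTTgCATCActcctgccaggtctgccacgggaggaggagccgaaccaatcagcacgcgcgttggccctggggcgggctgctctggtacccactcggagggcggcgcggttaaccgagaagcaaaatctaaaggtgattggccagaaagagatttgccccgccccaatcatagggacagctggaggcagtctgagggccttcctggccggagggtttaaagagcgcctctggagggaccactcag
Dnajb9, minus strand of chr12:44210019-44210318: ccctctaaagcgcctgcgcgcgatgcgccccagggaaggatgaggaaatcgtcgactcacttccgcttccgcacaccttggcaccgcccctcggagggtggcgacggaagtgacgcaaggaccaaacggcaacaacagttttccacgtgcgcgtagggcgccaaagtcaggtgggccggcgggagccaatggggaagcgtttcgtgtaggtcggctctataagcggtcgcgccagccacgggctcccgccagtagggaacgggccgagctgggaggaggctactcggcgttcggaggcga
Hspa5, plus strand of chr2:34771840-34772139: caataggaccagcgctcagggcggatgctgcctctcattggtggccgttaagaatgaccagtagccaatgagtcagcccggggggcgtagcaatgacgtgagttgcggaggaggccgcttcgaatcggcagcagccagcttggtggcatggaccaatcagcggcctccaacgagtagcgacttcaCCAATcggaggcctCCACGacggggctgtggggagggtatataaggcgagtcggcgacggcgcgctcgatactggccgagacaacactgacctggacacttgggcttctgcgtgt
Herpud1, plus strand of chr8:94386179-94386478: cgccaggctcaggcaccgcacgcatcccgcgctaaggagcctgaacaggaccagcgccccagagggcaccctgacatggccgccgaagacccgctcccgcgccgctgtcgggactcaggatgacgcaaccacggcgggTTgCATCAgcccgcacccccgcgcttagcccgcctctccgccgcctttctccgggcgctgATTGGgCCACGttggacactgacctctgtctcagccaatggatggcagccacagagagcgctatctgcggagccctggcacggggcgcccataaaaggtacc

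CARE was found in the windows of 5 of the 10 genes, Atf3, Chac1, Trib3, Asns and Herpud1, and in 3.97% of the 32851 promoter windows of the RefSeq table. In Atf3, Chac1 and Herpud1 the match lies on the strand opposite to the gene and reads TTGCATCA on the printed strand. In Trib3 the match also lies opposite to the gene and reads TTACATCA, starting 14 bases after the start, and in Asns it reads TGATGAAA on the strand of the gene. ERSE was found in Hspa5 alone of the 10 genes and in 0.119% of all windows, and ERSE II in Herpud1 alone and in 0.0365%. No match to these, to the UPRE core (TGACGTGG, in 0.676% of windows) or to CRE (TGACGTCA, in 1.79%) was found in Atf4, Ddit3, Dnajb9 or Xbp1. No match overlapped another. The letters of CARE were chosen with these windows in view, and a match is only a description of the letters in 1 window.

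Depth per library ran between 34339355 and 46544178 gene counts in silencing, where 14841 to 17908 genes were detected. It ran between 18288627 and 39056655 in overexpression, where 19893 to 21456 genes were detected. The biological coefficient of variation common to all genes was 90.1% in the silencing experiment and 22.3% in the overexpression experiment. Ptbp1 itself averaged 5.09 ± 6.10 CPM (counts per unit of TMM-normalized library size, on the usual CPM scale) in the Ptbp1 shRNA libraries and 4.10 ± 3.76 CPM in the scrambled ones (SD, n = 4 and 5). A reduction of Ptbp1 was not detectable in the silencing libraries, so each is named here by its label. In overexpression Ptbp1 averaged 137 ± 14.9 CPM with the Ptbp1 vector and 13.3 ± 3.03 CPM with the control vector (n = 5 and 4). In these bulk libraries fewer cells of a type and less RNA per cell cannot be told apart.

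**Figure D1:**
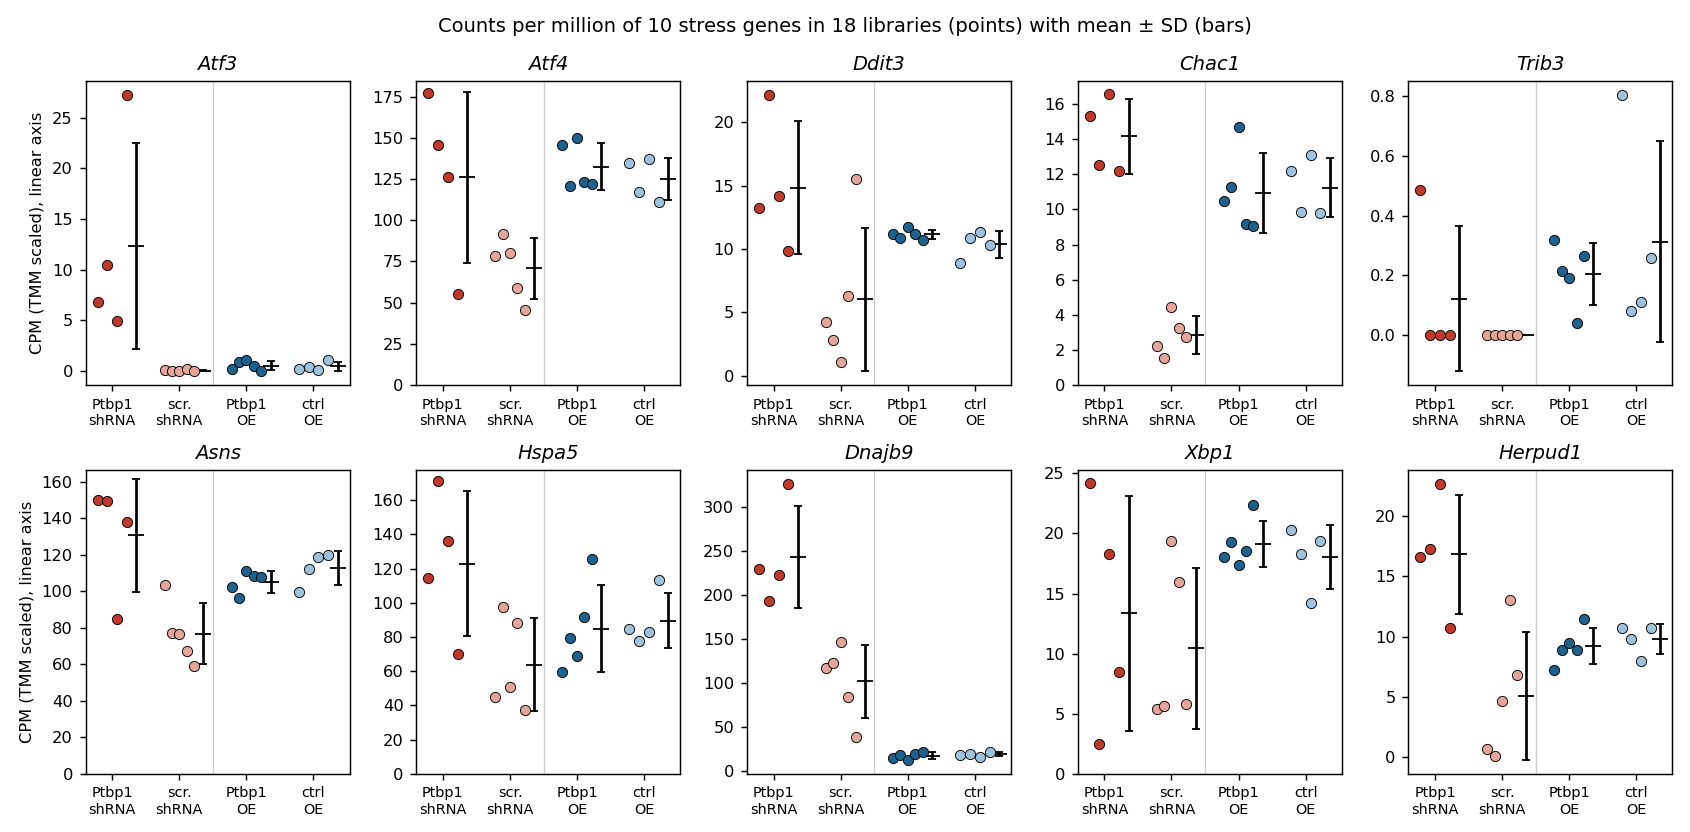
CPM on linear axes for each of the 10 genes in each of the 18 libraries (points), with the mean and SD of each group (bars; OE, overexpression; scr., scrambled; ctrl, control). All Ptbp1 shRNA libraries lie above all scrambled ones for Atf3, Chac1 and Dnajb9, and the overexpression groups overlap for every gene.

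In the Ptbp1 shRNA libraries the 9 genes that could be tested had fitted levels above the scrambled libraries, as did 51.2% of all genes, and none passed the test over all genes. The median log2 fold change of the 9 was 1.26, against 0.03 for all 14656 genes tested, and 6 of the 9 had an unadjusted p under 0.05 in edgeR's quasi-likelihood test, Atf3, Chac1, Dnajb9, Asns, Hspa5 and Atf4. The share of all genes with such a p and a higher level was 5.76%. The share called at an adjusted p under 0.05 was 0% in edgeR, with 1639 genes at an unadjusted p under 0.05. DESeq2 called 3 of the 9 as higher, Atf3, Chac1 and Dnajb9, where it called 1.47% of all genes as higher, and limma-voom called Atf3, where it called 0.287%. For these 3 genes the groups did not overlap, which held with a higher level for 2.39% of all genes tested. Without Ptbp1 shRNA replicate 4 the groups did not overlap for 6 of the 9, and for 4.56% of all genes with a higher level. The genes were named with earlier results of these libraries known, so these counts are a description. Atf3 passed the filter on low counts in silencing only through the Ptbp1 shRNA libraries, where it is high, so that it had to differ and its place in these counts and in the median supports nothing.

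Atf3, a transcription factor of acute stress and nerve injury that is also a target of ATF4, had 6.84, 10.4, 4.96 and 27.3 CPM in the 4 Ptbp1 shRNA libraries, against 0.078, 0, 0, 0.153 and 0 CPM in the 5 scrambled libraries. The groups are far apart, and 3 scrambled libraries hold no read of the gene at all. In counts this is 323, 415, 177 and 1043 in the Ptbp1 shRNA libraries, against 3, 0, 0, 7 and 0 in the scrambled ones. The log2 fold change was 7.94 (SE 1.42, 95% interval 4.86 to 11.02). It is a description without a p, because the libraries where Atf3 is high brought it into the test. Most of the reads fell in 1 stretch of the gene. Of its 8 exon bins, the stretches of a flattened annotation, bin 001 at the 3′ end took 75.5% to 100% of the bin counts in the Ptbp1 shRNA libraries, and 8, 4, 1 and 7 bins held a read. With the sums of exon bins in place of gene counts the log2 fold change was 7.58.

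Chac1, which degrades glutathione and is induced by ATF4 and CHOP, had 15.3, 12.6, 16.6 and 12.2 CPM in the Ptbp1 shRNA libraries, against 2.24, 1.55, 4.42, 3.23 and 2.76 CPM in the scrambled libraries. The lowest Ptbp1 shRNA library lies well above the highest scrambled one. Its log2 fold change was 2.32 (SE 0.63, 95% interval 0.97 to 3.67; edgeR adjusted p = 0.192, exact two-sided permutation p on log2(CPM + 0.5) = 0.0159, the lowest value open to the 126 ways of splitting 9 libraries). Bin 003 at the 3′ end took 93.7% to 100% of the bin counts in the Ptbp1 shRNA libraries. In scrambled replicate 5 its share was 34.8%, the lowest of the silencing libraries.

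Ddit3, the transcription factor CHOP of prolonged stress, had 13.2, 22.2, 14.2 and 9.81 CPM in the Ptbp1 shRNA libraries, against 4.27, 2.81, 1.09, 6.32 and 15.5 CPM in the scrambled libraries. Scrambled replicate 5 is the exception, above 3 of the 4 Ptbp1 shRNA libraries. That library also had 63.1% of its Ddit3 bin counts in bin 005, whereas bin 008 was the strongest in the other 8 silencing libraries. The log2 fold change was 1.31 (SE 0.74, 95% interval -0.29 to 2.90, edgeR adjusted p = 0.561). It was 1.04 without Ptbp1 shRNA replicate 2, 2.03 without scrambled shRNA replicate 5 and 2.02 in limma-voom with quality weights. The annotation places 68 exonic bases of Mars and 13 of Gm4189, both on the opposite strand, within Ddit3, so its counts are uncertain if reads were counted without strand.

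Atf4, the transcription factor at the centre of the integrated stress response, had 177, 146, 127 and 55.0 CPM in the Ptbp1 shRNA libraries, against 78.3, 91.8, 80.0, 59.03 and 45.3 CPM in the scrambled libraries. Ptbp1 shRNA replicate 4 lies among the scrambled libraries and the other 3 lie above them. Atf4 had a log2 fold change of 0.83 (SE 0.34, 95% interval 0.09 to 1.57, edgeR adjusted p = 0.385, exact permutation p = 0.111). Asns, the asparagine synthetase induced by ATF4, had 150.1, 149, 85.0 and 138 CPM in the Ptbp1 shRNA libraries, against 103, 77.3, 76.6, 67.2 and 58.9 CPM in the scrambled libraries. Ptbp1 shRNA replicate 3 is the low one here, below the highest scrambled library, and the log2 fold change was 0.77 (SE 0.27, 95% interval 0.19 to 1.35, edgeR adjusted p = 0.296). Trib3, a pseudokinase induced by ATF4 and CHOP, was near the limit of detection in the whole series and was not tested. Its only counts in the silencing experiment were 23 counts (0.487 CPM) in Ptbp1 shRNA replicate 1. The other 3 Ptbp1 shRNA and the 5 scrambled libraries had 0 counts, which allows up to 3 counts, or 0.0973 CPM in the shallowest scrambled library, by counting error alone.

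Dnajb9, a co-chaperone of Hspa5 in the endoplasmic reticulum induced through XBP1, had 229.7, 193, 223 and 327 CPM in the Ptbp1 shRNA libraries, against 117, 122, 146, 84.3 and 38.2 CPM in the scrambled libraries. The groups do not overlap. For Dnajb9 the log2 fold change was 1.26 (SE 0.34, 95% interval 0.53 to 1.99, edgeR adjusted p = 0.192, exact permutation p = 0.0159), and bin 001 of its 3 bins took 83.8% to 93.0% of the bin counts in the Ptbp1 shRNA and 81.6% to 89.2% in the scrambled libraries. Hspa5, the main chaperone of the endoplasmic reticulum (BiP), had 114, 171, 136 and 69.9 CPM in the Ptbp1 shRNA libraries, against 45.1, 97.5, 50.9, 88.2 and 37.2 CPM in the scrambled libraries. Ptbp1 shRNA replicate 4 was again low, below 2 scrambled libraries, and the log2 fold change was 0.95 (SE 0.36, 95% interval 0.17 to 1.72, edgeR adjusted p = 0.340).

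Herpud1, a membrane protein that helps to degrade misfolded proteins, had 16.6, 17.3, 22.7 and 10.7 CPM in the Ptbp1 shRNA libraries, against 0.676, 0.0716, 4.65, 13.1 and 6.84 CPM in the scrambled libraries. The scrambled libraries alone span 3 to 600 counts, and 1 of them lies within the range of the Ptbp1 shRNA libraries. The log2 fold change was 1.73 (SE 1.00, 95% interval -0.43 to 3.89, edgeR adjusted p = 0.567). It was 1.41 without scrambled shRNA replicate 2, 2.46 without scrambled shRNA replicate 4, the highest of its group, and 3.18 in limma-voom with quality weights. Xbp1, the factor downstream of IRE1, had 24.2, 2.44, 18.3 and 8.45 CPM in the Ptbp1 shRNA libraries, against 5.41, 5.68, 19.4, 15.9 and 5.84 CPM in the scrambled libraries. The scrambled libraries lie within the range of the Ptbp1 shRNA ones, with a log2 fold change of 0.35 (SE 0.72, 95% interval -1.21 to 1.91, edgeR adjusted p = 0.909) that was -0.11 without Ptbp1 shRNA replicate 1 and 1.06 with the mitochondrial share as covariate. A change of Xbp1 was not detectable at this spread.

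**Figure D2:**
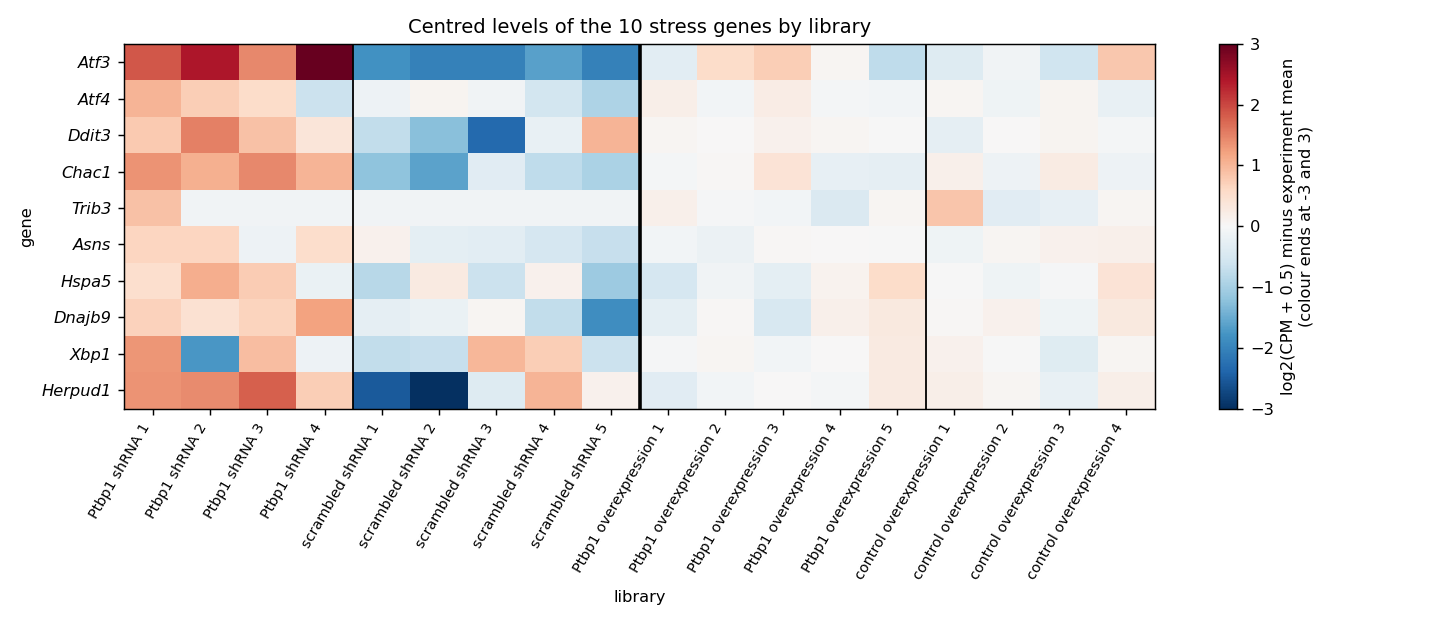
Level of each of the 10 genes (rows) in each library (columns), as log2(CPM + 0.5) minus the mean of the experiment; red is above and blue below that mean. For Atf3, Chac1, Ddit3, Dnajb9 and Herpud1 all 4 Ptbp1 shRNA libraries lie above the mean of the silencing experiment, whereas Xbp1 has 2 above it in each group.

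Among the silencing libraries 33 of the 36 pairs of tested genes had a positive correlation over the 9 libraries, with a median r of 0.53. The 2 groups were pooled there, and all 9 genes had higher fitted levels in the Ptbp1 shRNA libraries. A positive r can therefore come from that shift alone. Whether the genes varied together within a group, and the share of positive pairs among all genes, were not examined. The closest pair was Atf3 and Chac1 (r = 0.90), where Atf3 had to differ between the groups. The only negative pairs joined Xbp1 to Ddit3, Asns and Atf3. In the overexpression libraries 18 of 36 pairs were positive, with a median r of -0.0017. There the 6 pairs among Hspa5, Dnajb9, Xbp1 and Herpud1, genes of the endoplasmic reticulum arm, were all positive, with r = 0.83 for Hspa5 and Dnajb9. Atf4 was negative with each of these 4, at r = -0.91 with Dnajb9, and had r = 0.71 with Chac1. These are descriptions over 9 libraries that share their depth and scaling. Ptbp1 overexpression replicate 5 had the highest Hspa5 (125 CPM), Dnajb9 (21.8 CPM), Xbp1 (22.4 CPM) and Herpud1 (11.4 CPM) of that experiment.

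Of 11602 other genes, the 5 whose centred levels over the 18 libraries were most like the mean of the 9 tested genes were Nars (r = 0.98), Sept11 (0.93), Rapgef1 (0.93), Cdc7 (0.92) and Fam192a (0.92). That mean includes Atf3, which had to differ in silencing. It was 0.74 to 1.06 in the Ptbp1 shRNA, -1.03 to -0.28 in the scrambled and -0.16 to 0.16 in the overexpression libraries. The r therefore mainly ranks genes by their difference between the silencing groups and is a description. Nars, the asparaginyl-tRNA synthetase, averaged 358 ± 28.0 CPM in the Ptbp1 shRNA and 142 ± 28.9 CPM in the scrambled libraries (SD, n = 4 and 5), and 265 ± 13.3 CPM with the Ptbp1 vector and 255 ± 7.89 CPM with the control vector (n = 5 and 4). Its edgeR adjusted p was 0.0625 in silencing and 0.974 in overexpression.

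Other measures were set beside the silencing labels. Of these only the summed layer II markers separated the 2 groups fully, by a narrow margin, and the mitochondrial share nearly did. The summed level of 10 markers of layer II excitatory neurons was 1648 to 2774 CPM in the Ptbp1 shRNA and 2804 to 4711 CPM in the scrambled libraries, without overlap. Taken by gene, 9 of the 10 were lower, where 51.2% of all genes were higher, and 0 were called by edgeR. An unadjusted p under 0.05 with a lower level was reached by 2 (5.42% of all genes). Groups that did not overlap, with a lower level, were found for 1 (2.45% of all genes). The share of counts on mitochondrially encoded genes was 0.527% to 0.949% in the Ptbp1 shRNA and 0.184% to 0.537% in the scrambled libraries. Only the lowest Ptbp1 shRNA library (replicate 3) and the highest scrambled one (replicate 2) crossed, so this share went largely with the labels. A fit with it as covariate can therefore hardly tell it apart from the labels. The share of well covered exon bins without a count was 1.24% to 8.30% in the Ptbp1 shRNA and 1.54% to 7.61% in the scrambled libraries. Summed markers of astrocytes were 326 to 811 CPM in the Ptbp1 shRNA and 636 to 1038 CPM in the scrambled libraries, and those of microglia 1.43 to 18.2 CPM in the Ptbp1 shRNA and 7.30 to 26.3 CPM in the scrambled libraries, with C1qa at 0 in every silencing library. The sums overlapped between the groups for astrocytes and microglia, and also for interneurons, oligodendrocytes and vessels. Those of vessels reached at most 6.72 CPM in the Ptbp1 shRNA and 4.60 CPM in the scrambled libraries. Of the tested markers, 4 of 7 were lower for astrocytes, 2 of 3 for microglia, 6 of 7 for interneurons, 4 of 5 for oligodendrocytes and 0 of 2 for vessels. With the mitochondrial share as covariate 3 of the 9 stress genes had an unadjusted p under 0.05 in edgeR, Atf3, Chac1 and Dnajb9, at log2 fold changes of 8.10, 2.41 and 1.33, where 3.3% of all genes had such a p and a higher level. The other 3 lost it at log2 fold changes of 0.81 for Atf4 and 0.76 for Asns, close to those without the covariate, and of 0.50 for Hspa5, against 0.95 without it. The part of the neuronal and glial markers in the result was not tested.

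On overexpression of Ptbp1 none of the 9 tested genes was called, and their median log2 fold change was -0.04, against -8.0e-05 for all 16480 genes tested. Of the 9, 4 were higher and 5 lower, 0 had an unadjusted p under 0.05 (4.78% of all genes did) and 0 were called by edgeR, DESeq2 or limma-voom, which called 0.0425%, 0.243% and 0.0485% of all genes. None had groups that did not overlap, against 1.13% of all genes with a higher and 0.686% with a lower level. Chac1 had 10.5, 11.3, 14.7, 9.18 and 9.06 CPM with the Ptbp1 vector, against 12.2, 9.86, 13.1 and 9.79 CPM with the control vector. The groups overlap, with a log2 fold change of -0.04 (95% interval -0.41 to 0.33). Dnajb9 had 14.3, 18.03, 12.5, 19.6 and 21.8 CPM with the Ptbp1 vector, against 18.2, 19.5, 16.0 and 21.7 CPM with the control vector (log2 fold change -0.13, 95% interval -0.49 to 0.23). The interval stays below the lower end of that in silencing for Dnajb9 and for Chac1.

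Atf3 was near its detection limit with both vectors, at 0.244, 0.86, 1.05, 0.455 and 0.0442 CPM with the Ptbp1 vector, against 0.212, 0.356, 0.111 and 1.11 CPM with the control vector. No library reached the lowest Ptbp1 shRNA library of the other experiment, and the log2 fold change of 0.21 had an interval of -1.44 to 1.86. Atf4 lay at 121 to 149.9 CPM with the Ptbp1 vector and 111 to 137 CPM with the control vector (log2 fold change 0.08, 95% interval -0.13 to 0.30). Asns lay at 96.0 to 111 CPM with the Ptbp1 vector and 99.5 to 119.7 CPM with the control vector (-0.10, -0.28 to 0.08). These are the narrowest intervals of the 9 genes. Hspa5 lay at 59.3 to 125 CPM with the Ptbp1 vector and 77.4 to 113 CPM with the control vector (-0.08, -0.48 to 0.33). Ddit3 (0.10, -0.18 to 0.39), Xbp1 (0.08, -0.21 to 0.37) and Herpud1 (-0.10, -0.45 to 0.26) had intervals of a similar width. Trib3 had 1 to 13 counts per library with the Ptbp1 vector and 2 to 19 with the control vector.

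**Figure D3:**
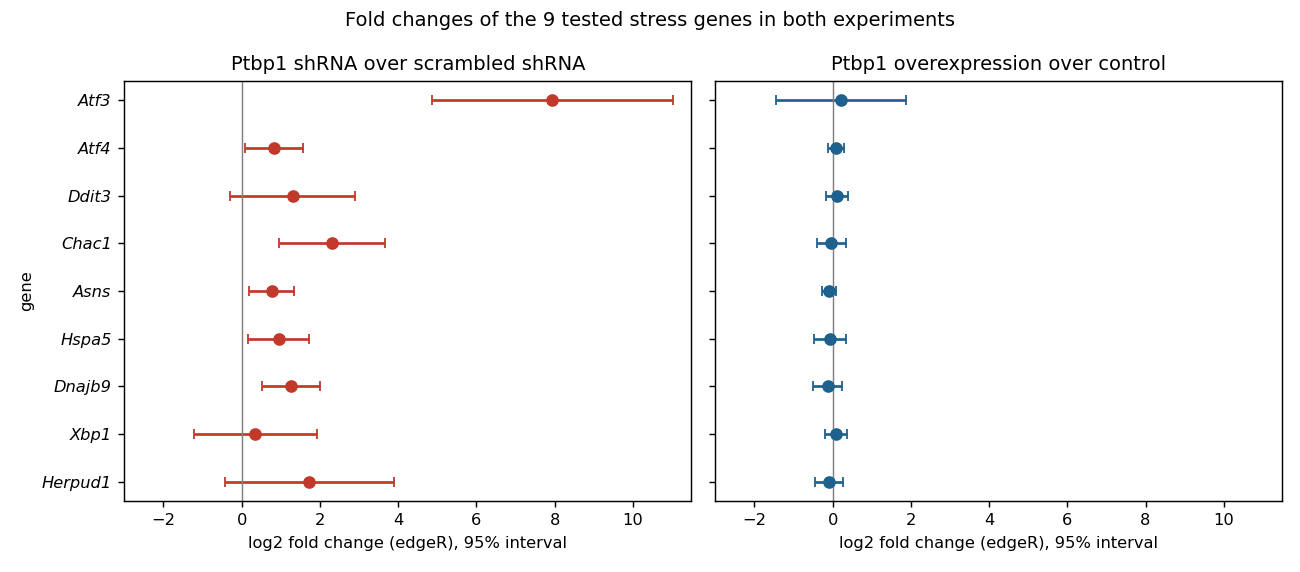
Log2 fold change (points) and 95% interval (bars) of the 9 tested genes from edgeR, for Ptbp1 shRNA over scrambled shRNA on the left and Ptbp1 overexpression over control on the right. The silencing intervals of Atf3, Atf4, Chac1, Asns, Hspa5 and Dnajb9 lie above 0, before adjustment over all genes, and all overexpression intervals include 0.

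The responses in the 2 experiments were compared in 1 model over all 18 libraries, which gives both experiments the same spread although they differ in it. The only call among the 9 genes was that of Atf3, with a log2 fold change in silencing minus that in overexpression of 7.69 (SE 1.58, edgeR adjusted p = 0.0469), where 0.225% of all genes were called. Atf3 is near its floor in 3 of the 4 groups, so this value rests on the Ptbp1 shRNA libraries. The call was lost in limma-voom with weights by experiment, without the filter on low counts, and in the fits without scrambled replicate 1 or 3, Ptbp1 shRNA replicate 4 or any 1 library of the overexpression experiment. For Chac1 the difference was 2.35 (SE 0.55, adjusted p = 0.0670), for Dnajb9 1.38 (SE 0.40, adjusted p = 0.128) and for Asns 0.86 (SE 0.27, adjusted p = 0.137). For Xbp1 it was 0.26 (SE 0.73, adjusted p = 0.935).

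Levels across the 4 groups can be set side by side only as a description, since the experiments were scaled apart and experiment and vector type cannot be told apart. Chac1 averaged 14.2 ± 2.13 CPM with the Ptbp1 shRNA and 2.84 ± 1.08 CPM with the scrambled shRNA, and 10.9 ± 2.29 CPM with the Ptbp1 vector and 11.2 ± 1.68 CPM with the control vector (SD), so that the scrambled libraries are the ones that stand apart. Atf4 likewise was lowest with the scrambled shRNA, at 126 ± 51.8 CPM with the Ptbp1 shRNA and 70.9 ± 18.5 CPM with the scrambled shRNA, and 132 ± 14.2 CPM with the Ptbp1 vector and 125 ± 12.9 CPM with the control vector. Dnajb9 was instead high in the whole silencing experiment, at 243 ± 58.0 CPM with the Ptbp1 shRNA and 102 ± 41.8 CPM with the scrambled shRNA, and 17.2 ± 3.82 CPM with the Ptbp1 vector and 18.9 ± 2.39 CPM with the control vector. Per kb of exonic length, Dnajb9 was the most abundant of the 10 genes with the Ptbp1 shRNA (95.4 CPM per kb) and with the scrambled shRNA (39.9), and Atf4 with the Ptbp1 vector (56.2) and with the control vector (53.0). That scale assumes even coverage of the exons, so the order of the genes is approximate. Bin 001 took 70.7% to 79.5% of the Dnajb9 bin counts with the Ptbp1 vector and 75.7% to 80.9% with the control vector. These shares lie below that of every silencing library. On that scale Asns came next in overexpression, at 38.4 CPM per kb with the Ptbp1 vector and 41.1 with the control vector. Trib3 was the least abundant in overexpression, at 0.0968 CPM per kb with the Ptbp1 vector and 0.147 with the control vector.

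The rest of the pathway was described by lists of further genes. Of the targets of ATF4 and CHOP outside the 10 genes, 23 of 29 were tested in silencing, 19 were higher and 4 lower, with a median log2 fold change of 0.97. None was called, 8 had an unadjusted p under 0.05 in edgeR, all higher (5.76% of all genes), and 5 had groups that did not overlap (2.39% of all genes with a higher level). Sesn2, 1 of these 8, had 1 to 79 counts in the scrambled libraries. It passed the filter on low counts only through the Ptbp1 shRNA libraries, where it is high, so its place in these counts supports nothing. Which other genes of the list entered in that way was not examined. Shmt2, a mitochondrial enzyme of one-carbon metabolism, averaged 31.2 ± 10.2 CPM in the Ptbp1 shRNA and 2.92 ± 2.74 CPM in the scrambled libraries (SD; n = 4, 5), a log2 fold change of 3.41 with an edgeR adjusted p of 0.125 that was 2.47 with the mitochondrial share as covariate. Ero1l, the oxidase that drives disulfide formation in the endoplasmic reticulum, averaged 277 ± 147 CPM in the Ptbp1 shRNA and 141 ± 42.0 CPM in the scrambled libraries (0.98). The value of Ero1l was -0.0561 with the mitochondrial share as covariate, and 0.53 without Ptbp1 shRNA replicate 2, its highest library. For the amino acid transporter Slc7a3 the means were 13.47 ± 6.15 CPM in the Ptbp1 shRNA and 3.05 ± 2.04 CPM in the scrambled libraries (2.14, or 1.44 with that covariate). In overexpression 27 of the 29 were tested, 11 higher and 16 lower with a median of -0.05. There Sesn2, a stress-induced inhibitor of mTORC1, had 9.16 ± 2.22 CPM with the Ptbp1 vector and 5.75 ± 1.33 CPM with the control vector (edgeR adjusted p = 0.790). Phgdh, the first enzyme of serine synthesis, had 1.61 ± 0.567 CPM with the Ptbp1 vector and 2.74 ± 0.378 CPM with the control vector (edgeR adjusted p = 0.974).

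Of 11 aminoacyl-tRNA synthetase genes known as ATF4 targets, 9 were higher and 2 lower in the Ptbp1 shRNA libraries, at a median of 0.81 on the log2 scale. The unadjusted p in edgeR was under 0.05 for 4 of them, all higher, and 3 had groups that did not overlap. Of all genes tested 51.2% were higher, 5.76% had such a p and a higher level, and 2.39% did not overlap with a higher level. Besides Nars the 4 included Aars, with 99.2 ± 34.2 CPM in the Ptbp1 shRNA and 22.4 ± 12.1 CPM in the scrambled libraries (edgeR adjusted p = 0.0851), without overlap. Sars had 40.5 ± 17.4 CPM in the Ptbp1 shRNA and 14.3 ± 3.17 CPM in the scrambled libraries (edgeR adjusted p = 0.211), also without overlap. In overexpression 4 of the 11 were higher and 7 lower, with a median of -0.02, and those with the smallest p were Nars (0.05) and Iars (-0.09).

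The targets of ATF6 and XBP1 outside the 10 genes were described in the same way. Of 30 tested in silencing 20 were higher and 10 lower, at a median of 0.27 on the log2 scale, where 51.2% of all genes were higher. In edgeR 0 of them reached an unadjusted p under 0.05, and 0 had groups that did not overlap. The smallest p was that of the oxidase Ero1lb, with 14.6 ± 6.38 CPM in the Ptbp1 shRNA and 29.4 ± 17.0 CPM in the scrambled libraries (log2 fold change -1.02, or -1.85 with the mitochondrial share as covariate). Next came Os9, a lectin of degradation from the endoplasmic reticulum, with 15.6 ± 13.8 CPM in the Ptbp1 shRNA and 7.08 ± 1.78 CPM in the scrambled libraries. Its log2 fold change of 1.14 was 0.30 without Ptbp1 shRNA replicate 2, the highest library, -0.41 with the mitochondrial share as covariate and 1.85 with sums of exon bins. In overexpression 13 of 31 were higher and 18 lower, with the chaperones Hspa13 (log2 fold change -0.44) and Hyou1 (-0.30) at the smallest p. The disulfide isomerase Pdia6 had a log2 fold change of 0.98 in silencing. Whether the lists of the different arms differed was not tested.

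Of 18 sensors and regulators, 10 were higher and 8 lower in the Ptbp1 shRNA libraries, with a median of 0.03, equal at 2 decimals to that of all genes. Groups that did not overlap were found for 1 with a higher and 1 with a lower level, against 2.39% and 2.45% of all genes. The sensor Atf6 had 143 ± 46.9 CPM in the Ptbp1 shRNA and 65.6 ± 13.7 CPM in the scrambled libraries (log2 fold change 1.12, edgeR adjusted p = 0.168), without overlap. Eif2s1, which encodes the initiation factor subunit that the stress kinases phosphorylate, had 105 ± 20.5 CPM in the Ptbp1 shRNA and 159 ± 23.3 CPM in the scrambled libraries (-0.60, adjusted p = 0.361), also without overlap. Eif2ak2, the kinase PKR, had 6.29 ± 4.22 CPM in the Ptbp1 shRNA and 20.1 ± 15.1 CPM in the scrambled libraries (-1.68, edgeR adjusted p = 0.481, or -2.41 in limma-voom). In overexpression it had 10.8 ± 4.22 CPM with the Ptbp1 vector and 5.12 ± 1.44 CPM with the control vector (1.07, edgeR adjusted p = 0.678), without overlap. It was the only 1 of the 18 without overlap there, against 1.13% of all genes with a higher level. Ppp1r15b, a subunit of the phosphatase that reverses the phosphorylation by the stress kinases, had a log2 fold change of -0.34 in overexpression.

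**Figure D4:**
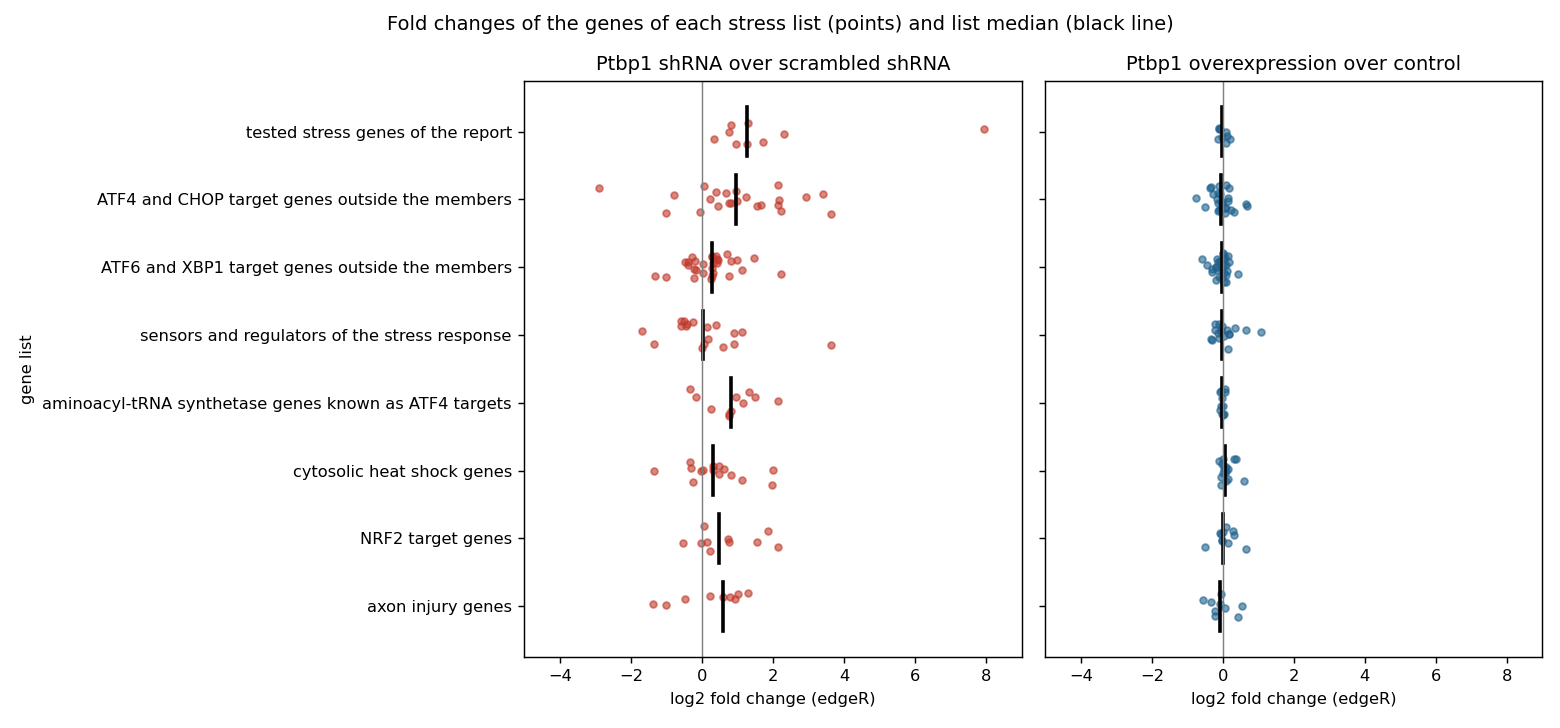
Log2 fold change from edgeR of each tested gene (points) in the 10-gene set and in 7 further stress lists, with the median of each list (black line), for Ptbp1 shRNA over scrambled shRNA on the left and Ptbp1 overexpression over control on the right. The medians lie between 0.03 and 1.26 on the left and between -0.09 and 0.05 on the right.

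Other stress programmes were set beside them, where 51.2% of all genes were higher in silencing. Of 15 tested cytosolic heat shock genes 10 were higher in the Ptbp1 shRNA libraries (median 0.31). The chaperone Hsp90aa1 had 4514 ± 881 CPM in the Ptbp1 shRNA and 2916 ± 340.1 CPM in the scrambled libraries, without overlap. Hspa4l was lower, at 559 ± 228 CPM in the Ptbp1 shRNA and 1415 ± 404 CPM in the scrambled libraries (edgeR adjusted p = 0.127). Its groups did not overlap either. In the list this held for 3 genes with a higher and 1 with a lower level, against 2.39% and 2.45% of all genes. Chordc1, a cofactor of Hsp90, had a log2 fold change of 0.82. Of 10 tested targets of NRF2, the factor of the oxidative stress response, 8 were higher (median 0.48). The glutathione synthesis subunit Gclm had 428 ± 94.3 CPM in the Ptbp1 shRNA and 250.1 ± 57.4 CPM in the scrambled libraries. Txnrd1 and Gclc, of the same response, had log2 fold changes of 1.86 (2.77 with the mitochondrial share and 2.71 with the bin share as covariate) and 0.74. Of 9 tested genes of axon injury other than Atf3, 6 were higher (median 0.59). Jun, a partner of Atf3, had 98.5 ± 46.4 CPM in the Ptbp1 shRNA and 51.5 ± 14.5 CPM in the scrambled libraries. Stmn4 and Lifr had log2 fold changes of 1.02 and 0.59. None of the genes of these 3 lists was called by edgeR in either experiment. In overexpression the medians were 0.05 for the heat shock genes, 0.0036 for the NRF2 targets and -0.09 for the axon injury genes. The smallest p there belonged to Hspa1a (0.36) and Hspa1b (0.32), near-identical copies whose counts are uncertain, to the NRF2 targets Prdx1 (0.29) and Slc7a11 (-0.51) and to the injury genes Npy (0.54) and Sox11 (0.43).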

How the data were processed

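Per the labels, the RNA was obtained by TRAP and sequenced on Illumina libraries. The authors deposited raw counts per gene for each experiment and raw counts per exon bin for each library, without normalization. STAR 2.5.3a, HTSeq and build mm10 appear in the submitters' processing notes without their roles, and no source states the strandedness. Of 39017 gene identifiers, 37607 have a symbol, and the 5 total lines of each exon table were left out. Separate fits per experiment used edgeR 4.0.16 (filterByExpr, TMM, robust quasi-likelihood test, Benjamini-Hochberg adjusted p under 0.05), in R 4.3.3, and the fit was tested on simulated data. DESeq2 1.42.0 and limma 3.58.1 were alternatives. Permutation tests used log2(CPM + 0.5). Levels per kb used GENCODE exonic lengths. Each library is 1 mouse, so p-values measure the spread between mice. The stress genes and all lists were chosen with earlier results of these data known. Named from each list were up to 3 tested genes with the smallest unadjusted p in silencing and up to 2 in overexpression, and also the 5 genes most like the stress genes (mean log2 CPM of at least 1 in both experiments). Intervals of fold changes reflect the spread between libraries, and limits on counts of 0 cover counting error only.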

Additional observations from a re-analysis of the deposited data

Results flagged for a closer look

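Trib3 was at 0.487 CPM in Ptbp1 shRNA replicate 1 and at 0 CPM in the other 3 Ptbp1 shRNA libraries, and with 0 in all the others any count would have stood apart. Asns was at 85.0 CPM in Ptbp1 shRNA replicate 3, far below the other 3 libraries of that group, which lay between 138 and 150.1 CPM. Libraries far from the rest of their group were looked for in 39 sets of a gene and a group, and chance alone gives about 1 in 20 such sets. The response of Atf3 was larger in silencing than in overexpression by 7.69 on the log2 scale (edgeR adjusted p = 0.0469), with Atf3 near its floor in 3 of the 4 groups, and was called under 6 of 20 alternatives, the fit without a filter on low counts not among them.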

How the results depend on the processing

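No paired analysis was possible because the labels give library numbers but nothing that ties a library of 1 group to a library of another. In silencing, 0 of the 9 tested stress genes were called by edgeR, 3 by DESeq2 (Atf3, Chac1, Dnajb9), 1 by limma-voom with quality weights (Atf3) and 5 when all 18 libraries shared 1 spread (with Atf4 and Asns), and 0 in each fit without 1 library. Over all genes these fits called 0, 434, 84 and 1775 genes in silencing, with 11 without a filter, 8 with the bin covariate and 0 to 5 without 1 library, and 7, 40, 8 and 0 in overexpression. The 6 genes with an unadjusted p under 0.05 became 3 with the mitochondrial share as covariate, where 3.3% of all genes had such a p and a higher level, and of the others Atf4 (0.81) and Asns (0.76) kept about their log2 fold change while Hspa5 had 0.50. The 3 genes whose groups did not overlap became 3 to 6 without 1 library (6 without Ptbp1 shRNA replicate 4), where 3.23% to 4.56% of all genes did so with a higher level, and 4 without the 2 least evenly covered libraries, Ptbp1 shRNA replicate 2 and scrambled replicate 5, an alternative chosen after seeing the data, where 5.54% did. In overexpression the 0 such genes became 0 to 1 (Asns, lower, without control replicate 1, where 2.0% of all genes did so with a lower level). The 1 call of the difference between experiments became 0 without a filter and 0 in limma-voom with weights by experiment, and 0 to 2 without 1 library (Atf3 and Chac1 without Ptbp1 shRNA replicate 2, Chac1 in place of Atf3 without Ptbp1 shRNA replicate 4). Some signs turned. Without Ptbp1 shRNA replicate 1, Xbp1 had -0.11 in silencing (range without 1 library to 0.70) and -0.20 in the difference (to 0.61). With the mitochondrial covariate, Ero1l had -0.0561 and Os9 -0.41 in silencing, against 0.98 and 1.14 without it, and Atf4 had -0.0343, Hspa5 0.0720 and Dnajb9 0.0716 in overexpression. In overexpression Chac1 had 0.0613 and Hspa5 0.00605 with the bin covariate, Chac1 0.00684 and Herpud1 0.0934 with sums of exon bins, and Atf3 -0.00128 in limma-voom. Without 1 library, the overexpression values ranged from -0.0904 to 1.17 for Atf3, -0.17 to 0.0330 for Chac1, -0.26 to 0.0564 for Hspa5 and -0.0253 to 0.14 for Xbp1. Where no cause is shown by the setting itself, the cause was not tested. The spread in silencing limits what could be called there, and the near absence of Trib3 counts left it untested.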
